A study of Bos taurus with 8 samples.

Results

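The last 3Kb window of a gene, the one in which its annotated transcript ends, was described in 8 maps of DNA methylation from cattle skin cells. A last window was the window with the highest start among those that carried a gene's symbol on the plus strand, or with the lowest start on the minus strand. Genes with 5 or more windows on chromosomes 1 to 29 were taken, which gave 12288 last windows, 1 per gene, out of 902984 windows on the bovine assembly UMD v3.1, 837275 of them on these chromosomes. The chosen genes were 12288 of 24023 gene symbols, and 10 further symbols that were annotated on both strands were left out. Each last window was set beside the window before it in the same gene (the preceding window) and the next window after the gene's end (the downstream window). The genes spanned 5 to 732 windows with a median of 13, 6252 lay on the plus strand and 6036 on the minus strand, and the symbols of 1927 started with LOC, which marks a locus with no gene name of its own.

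The libraries came from cultured dermal fibroblasts of 4 Holstein and 4 Angus heifers, 1 library per animal, all un-treated and at passage 5. The breeds were set side by side in a study of methylation and the innate immune response of such cells. Methylated DNA was captured with the MIRA assay, in which a methyl-CpG binding protein complex pulls down methylated fragments, and the captured DNA was sequenced (MIRA-Seq). The reads counted in windows came to 18691111 to 35525554 per library, and 0.995% to 1.74% of them fell in last windows. Levels are given as reads per 1000000 reads of the library (CPM), so that 3 reads, used here as the floor, equalled 0.0844 to 0.161 CPM. In 404 last windows no library held more than 3 reads, and 15 had no reads at all. The share of a library's reads that lay in the 1% of windows with the most reads ranged from 46.8% to 72.4% and was highest in Angus 3 and Holstein 1, which were also the libraries with the lowest mean CPM in last windows. Fewer methylated cells and less methylation per cell cannot be told apart in such bulk samples, and neither can methylation and the number of CpG sites in a window.

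DNA methylation in mammals sits mostly on the cytosine of CpG dinucleotides. It is typically low over promoters and CpG islands at the start of genes and high along the bodies of transcribed genes, where coding exons tend to be richer in CpG than introns. Gene ends hold the last coding exon, the 3' untranslated region and the polyadenylation site, after which the DNA passes into intergenic sequence or into a neighbouring gene.

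The window files give at most 1 gene name and 1 coding exon number per window. How these were chosen where a window holds several is not given in the sources used here, so the classes by coding exon and the last windows of overlapping genes are approximate. A coding exon was listed in 8891 last windows (72.4%) and none in 3397, in which the transcript therefore ended without one being listed. The share of windows with a coding exon grew towards the gene end, from 50.5% in the fourth window before the last, through 52.1%, 56.8% and 69.0%, to the last window, and was 18.7% in the downstream window. The downstream window carried no gene name for 9248 genes (75.3%), a gene on the opposite strand for 2058 (16.7%), and a gene on the same strand for 980 (7.98%). It lay off the end of the assembled chromosome for 2. Of the 2058 opposite-strand neighbours, 1212 were met at their own last window, an arrangement called tail-to-tail.

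Methylated DNA increased along the final windows of genes up to the window before the last and then dropped over the last and downstream windows. The mean over genes was 0.948 CPM in the fourth window before the last, followed by 1.02, 1.12 and 1.27 CPM in the third, second and first, then 1.17 CPM in the last window and 0.906 CPM downstream. In the last window the 8 libraries held a mean of 1.17 ± 0.212 CPM (SD, n = 8), between 0.809 CPM in Angus 3 and 1.42 CPM in Holstein 4. The first windows of the same genes averaged 0.746 ± 0.131 CPM. In the 1299 genes with exactly 5 windows, the fourth window before the last is this first window. The rise from the fourth window was not recomputed without these genes. The distribution over genes was wide: 25% of the last windows, by their mean over libraries, lay under 0.222 CPM, the median was 0.560 CPM, and 1% exceeded 7.21 CPM. The 122 last windows with the most reads (1%) held 8.41% of all reads in last windows, and the top 1228 (10%) held 42.2%.

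**Figure D1:**
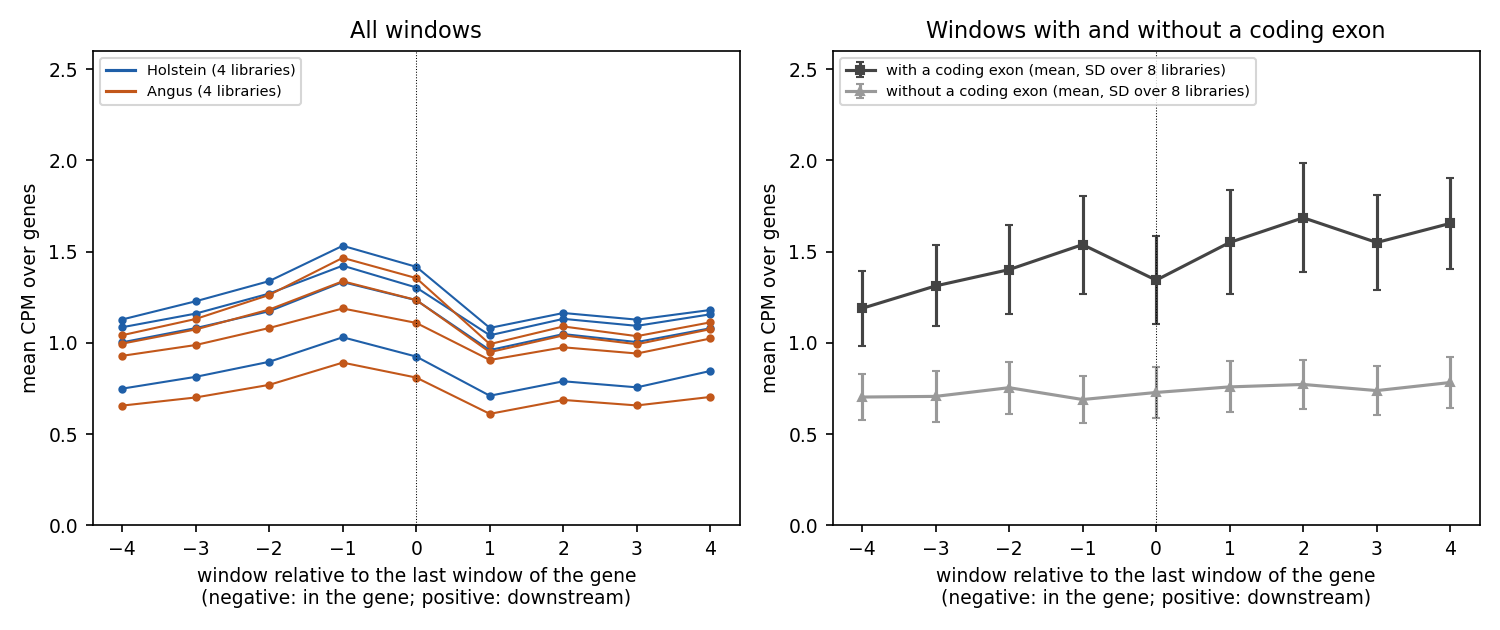
Mean CPM over genes (y axis) in 9 consecutive windows around the gene end (x axis, 0 is the last window). Left, 1 line per library, Holstein in blue and Angus in orange: every line is highest at the preceding window, then is lower at the last and again at the downstream window, from 1.27 to 1.17 to 0.906 CPM on average. Right, the windows of each position that list a coding exon (mean and SD over 8 libraries, 1.34 ± 0.243 CPM at the last window) and those that list none (0.728 ± 0.140 CPM).

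Each of these steps went the same way in 8 of 8 animals. The last window was below the preceding one by 0.102 ± 0.0147 CPM (SD over animals, 0.920 times its level) and above the downstream one by 0.266 ± 0.0602 CPM (1.29 times). It was above the first window by 0.427 ± 0.0889 CPM (1.57 times). The step from the preceding to the last window differed by -0.255 ± 0.0452 CPM from the step 1 window further upstream, where the level was still higher towards the end by 0.154 CPM. For all of them the exact two-sided sign-flip permutation test over the 8 animals gave p = 0.0078, the smallest it can give, and 0.0082 after Benjamini-Hochberg adjustment over 41 such comparisons. This test asks only whether the same set of windows differed in every animal and not whether another set of genes would: even plus-strand against minus-strand last windows, 0.0159 CPM apart, reached the same p. The difference from the preceding window rested on the mean, since the difference of the medians over genes was -0.0219 CPM and its exact permutation p was 0.125.

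Whether the last window held a coding exon went with a larger difference in level than its place at the gene end. Last windows with a coding exon averaged 1.34 ± 0.243 CPM and those without 0.728 ± 0.140 CPM, a ratio of 1.84 that was above 1 in 8 of 8 animals (exact permutation p = 0.0078). Per library, the first kind ranged from 0.936 CPM in Angus 3 to 1.62 CPM in Holstein 4, and the second from 0.479 to 0.876 CPM in the same libraries. Compared with the other 322735 windows that carried a gene name, last windows were higher, at 1.17 against 0.849 CPM. That difference held among windows with a coding exon, where last windows were 0.253 ± 0.0603 CPM above the 1.09 CPM of other such windows in 8 of 8 animals (exact permutation p = 0.0078). Among windows without a coding exon the difference was -0.00873 ± 0.0466 CPM, positive in 5 of 8 animals (exact permutation p = 0.609).

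The increase towards the gene end was likewise found in windows with a coding exon. Those rose from 1.19 CPM in the fourth window before the last to 1.54 CPM in the preceding window (difference 0.349 ± 0.0702 CPM, higher in 8 of 8 animals, exact permutation p = 0.0078). Windows without a coding exon went from 0.703 to 0.689 CPM over the same distance, a difference of -0.0136 ± 0.00718 CPM that was negative in 8 of 8 animals (exact permutation p = 0.0078). Which genes have a coding exon differs from position to position, so these are not the same genes at each step. For the 1299 genes of exactly 5 windows the fourth window before the last is also their first window.

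When genes were divided by which of the 2 windows listed a coding exon, the direction of the difference followed the coding exon. In the 2678 genes with one in the last window only, the last window averaged 1.10 CPM and the preceding 0.720 CPM. In the 2267 genes with one in the preceding window only, the order was turned, with 0.745 CPM in the last and 1.38 CPM in the preceding window. Where both windows listed one (6213 genes), the last window was lower, at 1.45 against 1.60 CPM. Where neither did (1130 genes), it was higher, at 0.693 against 0.615 CPM. The sign of the difference was the same in 8 of 8 animals for each of the 4 kinds of gene (exact permutation p = 0.0078 for each).

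**Figure D2:**
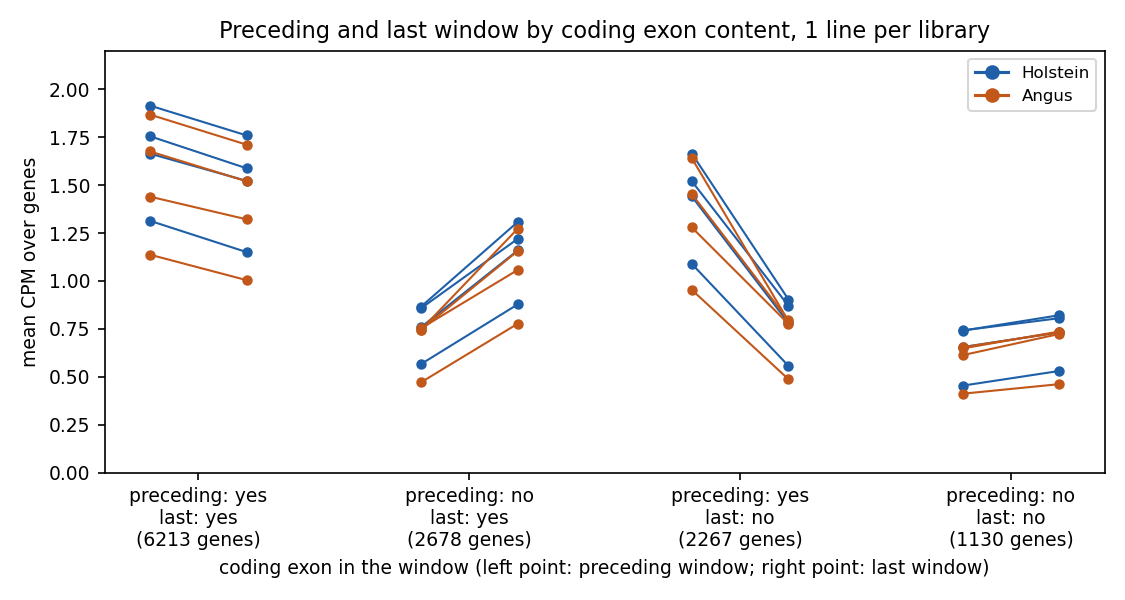
Mean CPM over genes (y axis) in the preceding (left point) and the last window (right point) of 4 kinds of gene (x axis), by whether each window lists a coding exon. Each line is 1 library, Holstein in blue and Angus in orange. The lines go up for the 2678 genes with a coding exon in the last window only, from 0.720 to 1.10 CPM on average, and down for the 2267 genes with one in the preceding window only, from 1.38 to 0.745 CPM.

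Beyond the gene end, the level depended on what the downstream window carried. Downstream windows with no gene name averaged 0.755 ± 0.139 CPM, and unnamed windows 2, 3 and 4 places past the end stayed at 0.769, 0.719 and 0.768 CPM. Last windows with a coding exon were above an unnamed downstream window, at 1.21 against 0.772 CPM in 6518 genes (8 of 8 animals, exact permutation p = 0.0078). Last windows without a coding exon did not differ from it beyond the spread between animals, at 0.701 against 0.715 CPM in 2730 genes (difference -0.0144 ± 0.0204 CPM, positive in 2 of 8 animals, exact permutation p = 0.102, adjusted p = 0.104). Where a gene on the same strand followed, the last window averaged 1.31 and the downstream window 1.02 CPM. Where a gene on the opposite strand followed, both were high, at 1.62 and 1.53 CPM, and the difference between them was 0.0856 ± 0.0202 CPM, positive in 8 of 8 animals. Last windows in tail-to-tail pairs averaged 1.46 CPM, 0.401 ± 0.0862 CPM above those followed by an unnamed window. Of the last windows next to an opposite-strand gene 81.0% listed a coding exon, against 70.5% next to an unnamed window, and the part of this in the levels was not tested.

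Longer genes had lower last windows. Mean levels were 1.33 CPM in genes of 5 to 9 windows (4508 genes), 1.16 CPM in genes of 10 to 19 (3550), 1.02 CPM in genes of 20 to 49 (2848) and 0.988 CPM in genes of 50 or more (1382). Genes of 20 to 49 windows were above genes of 50 or more in 8 of 8 libraries. Genes of 50 or more windows stood apart in another way in the mean: their last window was above the preceding one, by 0.0359 ± 0.0159 CPM in 8 of 8 animals, whereas it was below in the 3 shorter classes, by 0.112 to 0.139 CPM. The median over these long genes, averaged over libraries, was no higher in the last window, at 0.456 against 0.457 CPM. The difference between long and shorter genes was 0.155 ± 0.0254 CPM (8 of 8 animals, exact permutation p = 0.0078). In these long genes 72.9% of last but 53.5% of preceding windows listed a coding exon, while in genes of 5 to 9 windows the shares were 74.7% and 72.8%. Genes with exactly 5 windows, just inside the length limit, averaged 1.39 CPM in the last window, and the 1603 genes with exactly 4, just outside, averaged 1.37 CPM. LOC genes averaged 0.827 CPM against 1.24 CPM for other symbols, with a coding exon in 53.9% and 75.8% of last windows.

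**Figure D3:**
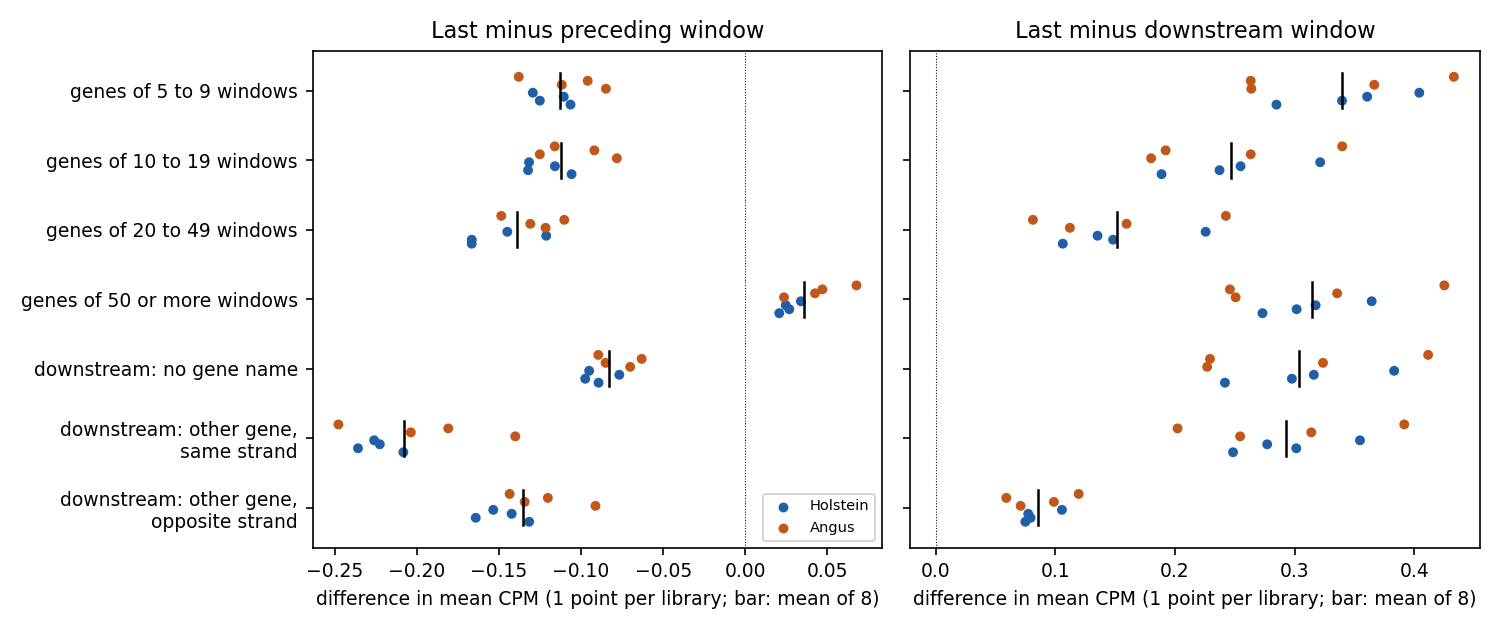
Difference in mean CPM (x axis) between the last and the preceding window (left) and between the last and the downstream window (right) for classes of gene (y axis), with 1 point per library, Holstein in blue and Angus in orange, and a bar at the mean of 8. On the left only genes of 50 or more windows lie right of 0, with a mean of 0.0359 CPM. On the right all points lie right of 0, closest for genes followed by a gene on the opposite strand, with a mean of 0.0856 CPM.

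Chromosomes differed in the level of their last windows. The highest means were on chromosome 25 with 2.47 ± 0.468 CPM (SD over 8 libraries, 315 genes), chromosome 22 with 1.99 ± 0.353 CPM, chromosome 19 with 1.69 ± 0.309 CPM and chromosome 17 with 1.68 ± 0.330 CPM. The lowest were on chromosomes 10, 9 and 1, with 0.726, 0.736 and 0.793 CPM. Over the 29 chromosomes Spearman's rho between the mean last-window level and the number of these genes per megabase was 0.44, a description of chromosomes that share all 8 libraries. The last window was below the preceding one in at least 6 of 8 animals on 25 chromosomes. The exceptions were chromosomes 1, 8 and 24, where it was lower in 1 of 8, and chromosome 9, where it was lower in 4 of 8. It was above the downstream window in 8 of 8 animals except on chromosome 2, with 5 of 8, and chromosome 13, with 3 of 8. On chromosome 13 the means were 1.29 CPM in the last and 1.33 CPM in the downstream window, over 505 genes. That downstream mean includes 1 window with 65.3 CPM, next to GPCPD1, and the comparison was not repeated without it.

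Single genes showed much larger differences between the 2 windows than the means, in both directions. In every library 43.5% to 46.0% of genes had more reads in the last than in the preceding window and 48.9% to 51.4% had fewer. Of the 12288 genes, 4614 had a mean of at least 1 CPM over both windows and were tested with edgeR's quasi-likelihood test, with the animal as a block. A difference was called at a Benjamini-Hochberg adjusted p (FDR) under 0.1 and a fold change (FC) of at least 2. The last window was called higher in 943 genes and lower in 1155, which is 20.4% and 25.0% of those tested and 45.5% together. In 940 and 1147 of them the direction was the same in 8 of 8 animals, which calls of this size in a test blocked by animal make likely. Among all 12288 genes, called or not, the last window was above the preceding one in 8 of 8 animals in 2813 (22.9%) and below it in 3343 (27.2%). The same test of the preceding against the second preceding window called 41.0% of 4271 genes, 26.6% higher and 14.4% lower towards the gene end, so that differences of this size between neighbouring windows were common inside genes as well. The last window was called above the downstream window in 39.9% and below it in 11.2% of 3928 genes tested (51.1% together). The median log2 fold change of the last over the preceding window was -0.11 over the tested genes. When window positions were scaled to each other by TMM the median became 0.02 and the counts 1034 higher and 1017 lower, so the balance of the directions depended on the scaling. TMM takes out a shift shared by most genes, so the near-even counts follow from it and are no test of the direction.

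These counts also went with the coding exon. Of 720 tested genes with a coding exon in the last window only, 361 were called higher (50.1%) and 43 lower (5.97%). Of 813 tested genes with one in the preceding window only, 29 were called higher (3.57%) and 452 lower (55.6%). Where both windows listed one, 500 of 2886 were higher and 612 lower, and where neither did, 53 of 195 were higher and 48 lower. The breeds gave nearly the same ratios: across the 4614 genes, which are not independent replicates, Pearson's r between the log2 ratios of summed reads in Holstein and in Angus was 0.98, and 4306 genes (93.3%) had the same sign. Across all last windows Spearman's rho between any 2 libraries was 0.91 to 0.96. Within a library it was 0.64 to 0.68 between last and preceding, 0.58 to 0.63 between last and downstream, and 0.35 to 0.41 between last and first windows of the same genes.

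**Figure D4:**
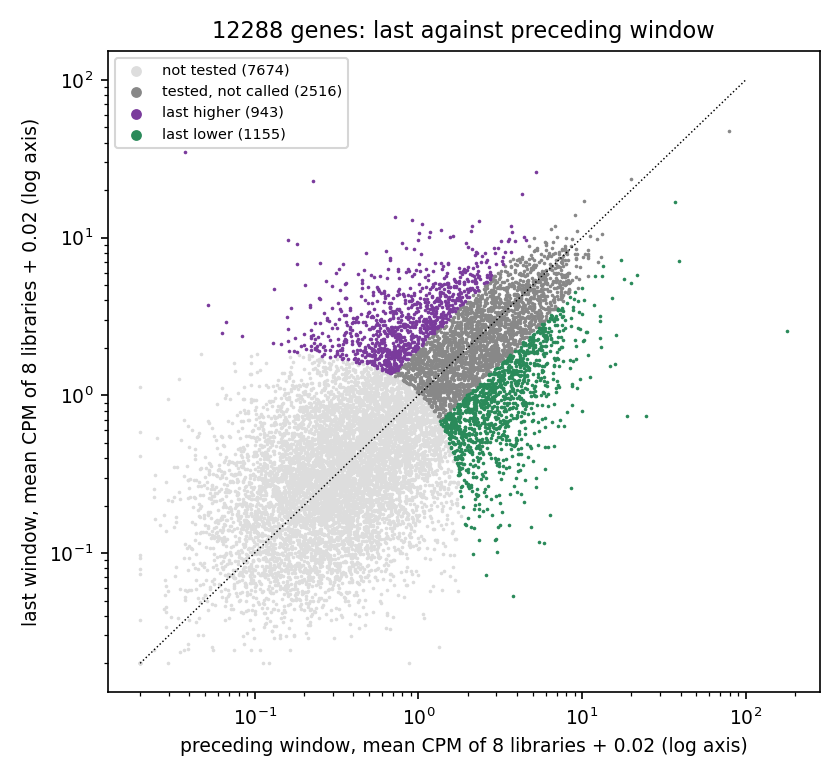
Mean CPM of 8 libraries in the last window (y axis) against the preceding window (x axis) for 12288 genes, both with 0.02 CPM added and on log axes. Light grey marks 7674 genes under the level needed for the test, dark grey 2516 genes tested and not called, purple 943 genes called higher and green 1155 genes called lower in the last window. The dotted line marks equal levels.

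The 10 genes with the largest fold change towards the last window were C9H6orf174, PELI2, RANBP1, GFOD1, JHDM1D, ZNF133, GPCPD1, NHSL1, ACVR1B and STX11, leaving out LOC symbols, of which 96 were called higher and 81 lower. All but GPCPD1 listed a coding exon in the last window. The filter for the test used the mean over both windows. These 10 genes had a low preceding window, so they passed it only through their high last window. C9H6orf174 (chr9:24098851-24101850, plus strand) held 7.29, 8.63 and 10.9 CPM in the lowest, median and highest library in its last window and 0.0672, 0.182 and 0.216 CPM in the preceding one. The libraries of the 2 windows were far from overlapping, which the choice by fold change makes likely. The log2 fold change was 5.80 ± 0.14 (SE, edgeR quasi-likelihood FDR = 3.66e-29). PELI2, whose protein is an E3 ubiquitin ligase of Toll-like receptor signalling, held 2.27 to 3.91 CPM in its last window (chr10:68972001-68975000), while the preceding window held 0 to 4 reads per library. Its first window, at 0.129 CPM, and its downstream window, at 0.118 CPM, were low too.

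ZNF133, a zinc finger gene, held 4.85, 6.82 and 9.15 CPM in the lowest, median and highest library in its last window (chr13:38720397-38723396) and 0.101 to 0.433 CPM in the preceding one, with a log2 fold change of 4.86 ± 0.15 (SE, FDR = 3.94e-26). ACVR1B, a type I receptor for activin, held 3.73 to 7.06 CPM against 0.0506 to 0.349 CPM. STX11, a syntaxin of vesicle fusion with its coding exon in the last window, held 5.11 to 7.28 CPM against 0.0506 to 0.492 CPM. In none of these 3 genes did the libraries of the 2 windows overlap, which the choice by fold change makes likely. RANBP1, which acts in nuclear transport through Ran, ended 1 window before TRMT2A on the same strand, and its downstream window held 1.51 CPM beside 2.47 CPM in the last. GPCPD1, an enzyme of phospholipid breakdown, ended beside an unnamed downstream window with 39.6 to 93.6 CPM, against 2.3 to 4.62 CPM in its own last window. The log2 fold changes of GFOD1, JHDM1D (a histone lysine demethylase) and NHSL1 were 5.37, 5.05 and 4.35.

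The 10 genes with the largest fold change in the other direction were KL, CNR1, FAM171A1, ZNF295, ANKRD50, HEY2, C9H6orf103, OTUD4, KLB and TANC1. All listed a coding exon in the preceding window, and 6 of them, CNR1, FAM171A1, HEY2, OTUD4, KLB and TANC1, listed none in the last. With a low last window, all 10 passed the filter for the test only through their high preceding window. KL encodes klotho, a co-receptor for FGF23. Its last window (chr12:28070422-28073421, minus strand) held 0 to 2 reads per library and its preceding window 58 to 126 reads, which is 2.69, 3.44 and 6.37 CPM in the lowest, median and highest library. The fitted log2 fold change of -6.60 ± 0.25 (SE, FDR = 1.85e-23) depends on the prior count at so few reads. KLB, which encodes the related co-receptor beta-klotho, held 0 to 6 reads in the last and 32 to 146 reads in the preceding window.

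CNR1, the cannabinoid receptor 1 gene, held 5.15, 5.84 and 6.47 CPM in the lowest, median and highest library in the preceding window, which lists its coding exon, and 0 to 6 reads per library in the last (chr9:62662351-62665350), for a log2 fold change of -5.87 ± 0.20 (SE, FDR = 9.87e-25). HEY2, a transcriptional repressor downstream of Notch, held 2.62 to 3.80 CPM in the preceding window and 1 to 5 reads in the last. The preceding window was higher in 8 of 8 animals for each of the 10 genes, which was a condition for naming them. ZNF295, ANKRD50 and C9H6orf103 listed a coding exon in both windows, and their preceding windows averaged 6.34, 4.89 and 8.57 CPM against 0.154, 0.127 and 0.240 CPM in the last. The log2 fold changes of FAM171A1, OTUD4 (a deubiquitinase) and TANC1 (a scaffold protein of synapses) were -5.69, -4.74 and -4.69.

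**Figure D5:**
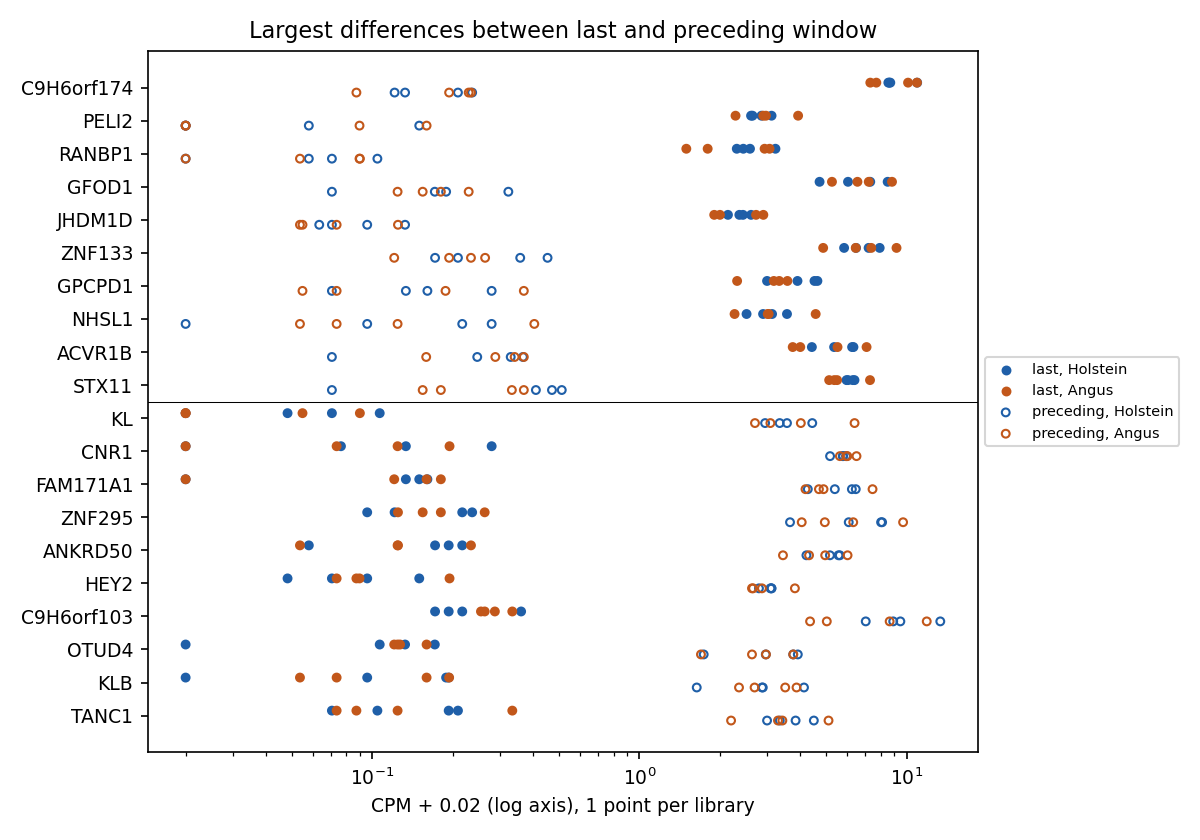
CPM in the last (filled) and preceding window (open) with 0.02 added, on a log axis (x), for the 10 genes with the largest called difference in each direction (y axis, the higher last windows above the line). Each point is 1 library, Holstein in blue and Angus in orange. The 2 windows do not overlap in any of the 20 genes, which were chosen from these data for their large differences. C9H6orf174, for example, held at least 7.29 CPM in the last and at most 0.216 CPM in the preceding window.

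The 10 last windows with the highest level were those of ABCA5, LOC100337324, ABCA2, LOC789131, LOC100847265, PHLPP1, TOLLIP, KIF19, TERT and LRRC4B. ABCA5, which encodes a lipid transporter of the ABC family, held 24.2, 44.8 and 66.4 CPM in the lowest, median and highest library (chr19:61925475-61928474), with 78.5 CPM on average in the preceding and 64.1 CPM in the downstream window. Reads in it were stacked, since the highest coverage at any base was 196 to 352 reads. LOC100337324 held 35.1 CPM in a last window with no coding exon, next to a preceding window with 0 to 2 reads per library. Its highest coverage was 541 to 1243 reads. ABCA2, another lipid transporter, held 14.1 to 53.0 CPM with a highest coverage of 328 to 1704 reads. Coverage was much lower in TOLLIP, an inhibitor of Toll-like receptor signalling, with 12.7, 17.1 and 20.9 CPM in the lowest, median and highest library and at most 73 reads at any base. TERT, the catalytic subunit of telomerase, held 10.9 to 16.8 CPM, the phosphatase gene PHLPP1 13.2 to 32.7 CPM, and LRRC4B 10.6 to 19.04 CPM. KIF19, a kinesin gene, held 8.63 to 35.3 CPM, about as variable as its preceding window with 18.5 to 75.7 CPM. LOC789131 and LOC100847265 averaged 23.4 and 22.8 CPM. Reads were stacked in LOC100847265 too, with a highest coverage of 382 to 684 reads where the window held 419 to 754. The spread between libraries was wide in this group, and neighbours in the order, for instance KIF19 and TOLLIP, overlapped.

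Gene groups were described by their last windows, beside the 12288 genes, whose median was 0.560 CPM in the last, 0.566 CPM in the preceding and 0.458 CPM in the downstream window. In all groups the filter for the test was again the mean over both windows. Tested genes with 1 of the 2 windows under 1 CPM therefore passed it only through the other window, and their fold changes carry that choice. Among 51 extracellular matrix and fibroblast genes the medians were 1.03, 1.23 and 0.502 CPM, and of 28 tested 8 were called higher (28.6%) and 6 lower (21.4%) in the last window, near the 20.4% and 25.0% of all tested genes. The 8 were ADAMTS5, COL6A3, LTBP3, TNXB, FBLN1, LOXL2, FBLN2 and COL7A1. ADAMTS5, an aggrecan-cleaving protease, held 2.48 against 0.339 CPM in the preceding window (log2 fold change 2.80 ± 0.19, SE), and COL6A3, a chain of type VI collagen, 2.62 against 0.479 CPM (2.42 ± 0.16). The matrix glycoprotein gene FBLN2 had the highest last window of the group with 7.85, 9.11 and 12.1 CPM in the lowest, median and highest library, followed by COL6A1 with a mean of 6.35 CPM. The 6 lower ones were PDGFRB, the platelet-derived growth factor receptor beta, at 0.892 against 2.19 CPM, with COL5A3, NID2, COL6A2, ACTA2 and COL16A1. THBS1 and COL11A1 were the lowest, with 0.038 and 0.0661 CPM.

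In 57 developmental transcription factor genes the medians were 0.879 CPM in the last, 0.645 CPM in the preceding and 0.459 CPM in the downstream window, and of 24 tested 3 were called higher (12.5%) and 11 lower (45.8%), beside 20.4% and 25.0% of all tested genes. RUNX1 held 3.39, 5.16 and 5.74 CPM in the lowest, median and highest library of its last window (chr1:148678101-148681100), which lists a coding exon, and 0.101 to 0.952 CPM in the preceding one, which lists none (log2 fold change 3.35 ± 0.16, SE). GLI2, a transcription factor of Hedgehog signalling with 5.76 CPM, and LHX9 were the other two. The Hedgehog factor GLI3 was among the 11 lower, with 0.470 to 1.60 CPM in the last and 5.24 to 8.35 CPM in the preceding window. The others were TCF4, FLI1, GATA6, PRDM16, GATA4, ZEB1, RUNX3, FOXO1, ZFHX4 and ERG, and FLI1, GATA6, GATA4, ZEB1, RUNX3, FOXO1 and ERG listed a coding exon in the preceding window only. MEIS2 and NFIB were the lowest, with 0.0724 and 0.111 CPM.

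Lipopolysaccharide sensing and inflammation is the response for which these fibroblasts were compared. In 40 genes of this group the medians were 0.443, 0.622 and 0.488 CPM. Of 13 tested 1 was called higher (7.69%) and 2 lower (15.4%), where 20.4% and 25.0% of all tested genes were. The stress kinase gene MAPK8 held 1.72 CPM in the last and 0.391 CPM in the preceding window, and the related MAPK14 0.331 against 1.75 CPM. IRF8, an interferon regulatory factor, held 0.405 to 1.21 CPM against 3.73 to 5.78 CPM. The highest last window was that of TRAF3, an adaptor of Toll-like receptor signalling, with 7.30 CPM against 4.10 CPM (log2 fold change 0.85 ± 0.09, SE, under the fold limit). JAK2 and BIRC3 were the lowest with 0.0512 and 0.0574 CPM.

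Genes of central carbon metabolism and respiration had medians of 0.771, 1.17 and 0.595 CPM in the last, preceding and downstream window (41 genes), and of 20 tested 2 were called higher (10%) and 8 lower (40%), beside 20.4% and 25.0% of all tested genes. OGDH, a subunit of the 2-oxoglutarate dehydrogenase complex, held 3.09 to 4.93 CPM in the last and 0.642 to 1.33 CPM in the preceding window, and HK1, a hexokinase, 4.02 against 1.58 CPM. Lower were the pentose phosphate enzyme genes PGD, at 0.479 against 3.14 CPM, and TKT, with the glycolytic genes PFKP, PFKM, ENO1 and PKM2, the citric acid cycle gene MDH2, and ACLY, which makes cytosolic acetyl-CoA. PC had the highest last window, with 6.79 CPM, and NDUFS1 the lowest, with 0.0337 CPM.

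In 72 long neuronal adhesion and synapse genes, with a median length of 188 windows, the medians were 0.346, 0.317 and 0.213 CPM, and of 15 tested 7 were called higher (46.7%) and 2 lower (13.3%), beside 20.4% and 25.0% of all tested genes. KCNQ3, a potassium channel subunit, held 2.52, 3.37 and 5.19 CPM in the lowest, median and highest library in the last window and 0.107 to 0.452 CPM in the preceding one (log2 fold change 3.57 ± 0.18, SE). The teneurin gene ODZ3 held 4.50 to 8.33 CPM against 0.265 to 0.765 CPM, and the adhesion gene NRXN3 2.38 against 0.207 CPM. CSMD1, NTM, ASTN2 and ODZ2 were also higher, GRIN2A and OPCML lower. DPP6, with 5.25 CPM, stood second to ODZ3 in level, and GRIA4 and CTNNA3 were the lowest, with 0.00436 and 0.0298 CPM.

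Of 15 imprinted genes, 8 were tested, and 2 were called higher (25%) and 1 lower (12.5%), beside 20.4% and 25.0% of all tested genes. GNAS, which encodes a G protein subunit, was higher in its last window (1.89 against 0.300 CPM), as was SLC22A18 (3.15 against 1.53 CPM), and the noncoding RNA gene MEG3 was lower (0.168 to 0.838 CPM against 2.12 to 3.86 CPM). IGF2R and PEG3 had the highest last windows with 3.93 and 3.49 CPM, and UBE3A and SGCE the lowest with 0.0219 and 0.0628 CPM.

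The 183 zinc finger genes had medians of 0.407, 0.335 and 0.354 CPM, and of 59 tested 19 were called higher (32.2%) and 22 lower (37.3%), beside 20.4% and 25.0% of all tested genes. Many genes of this family carry their finger array in 1 long final coding exon. ZNF71 held 10.5, 12.8 and 16.1 CPM in the lowest, median and highest library of the last window (chr18:64012898-64015897) and 0.336 to 1.26 CPM in the preceding one. ZNF227 held 3.90 to 6.63 CPM against 0.0506 to 0.563 CPM. The others called higher were ZNF133, ZNF496, ZNF329, ZNF618, ZNF821, ZNF93, ZNF331, ZNF710, ZNF786, ZNF135, ZNF394, ZNF317, ZNF235, ZNF629, ZNF746, ZFP64 and ZNF274, and among these ZNF618 held 10.1 CPM. In the opposite direction, ZNF574 listed a coding exon in the preceding window only and held 7.28 to 13.8 CPM there and 0.268 to 1.10 CPM in the last window. The others called lower were ZNF295, ZNF462, ZNF469, ZNF169, ZNF407, ZKSCAN5, ZSCAN2, ZNF383, ZNF532, ZNF438, ZNF862, ZNF777, ZNF827, ZNF341, ZNF264, ZNF217, ZNF653, ZNF805, ZNF236, ZNF839 and ZNF76. ZNF782 averaged 0.00436 CPM, and ZNF280B had no reads in its last, preceding and downstream windows, a count at which up to 3 reads per library are allowed. Reads of near-identical zinc finger genes could be split between copies.

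Holstein and Angus fibroblasts were compared to ask whether the breeds differ at gene ends. The mean level of last windows was 1.22 ± 0.210 CPM in Holstein and 1.13 ± 0.234 CPM in Angus (SD, n = 4 each), with 0.924, 1.30, 1.23 and 1.42 CPM in the 4 Holstein and 1.11, 1.23, 0.809 and 1.35 CPM in the 4 Angus libraries. The breeds overlapped, and the difference of 0.0924 CPM was smaller than the spread (exact two-sided permutation test, p = 0.600, where 4 against 4 cannot go below 0.0286). Without Angus 3 it was -0.0134 CPM, and with TMM library sizes -0.0139 CPM. The difference between last and preceding window was -0.110 ± 0.00917 CPM in Holstein and -0.0937 ± 0.0155 CPM in Angus (exact permutation p = 0.143, adjusted p = 0.286). No gene's ratio of last to preceding window differed between the breeds by edgeR's quasi-likelihood test (0 of 4614 called, 0.0%), with 160 genes at an unadjusted p under 0.05, and 0 by the likelihood-ratio test and by DESeq2.

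A CPM of at least 1 in 4 or more libraries was reached by 4439 of the 12288 last windows (36.1%), and these entered a likelihood-ratio test of breed in edgeR over all 115360 windows that passed. That test called 0.231% of all windows and 0.0923% of those on chromosomes 1 to 29. Among last windows it called 1, that of LOC783096 (chr18:63208498-63211497). It held 2.63, 2.38, 4.01 and 3.86 CPM in the 4 Holstein and 2.09, 9.07, 4.30 and 8.93 CPM in the 4 Angus libraries. Angus 2 and 4 were high, and Angus 1 was below every Holstein library, so the breeds overlapped. The log2 fold change of Holstein over Angus was -1.0 ± 0.26 (SE, FDR = 0.0413), and the call was lost with the quasi-likelihood test (FDR = 0.203), with DESeq2 and without any 1 of Holstein 2, Holstein 4, Angus 2, Angus 3 and Angus 4. At an unadjusted p under 0.05 stood 157 of the 4439 last windows (3.54%), against 4.94% of all windows. The breeds did not overlap in 44 tested last windows (0.991%), against 1.18% of all tested windows on these chromosomes.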

How the data were processed

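MIRA-Seq reads of 8 un-treated fibroblast cultures were counted by the authors in consecutive 3Kb windows of UMD v3.1 with NextGENe 2.3.4 and deposited as raw read counts without normalization, beside the highest and mean coverage per window, a signal not scaled for depth. Handling of duplicate and multiply matching reads is not given in the sources used here, and stacked reads depend on it. Only the counts were tested. Breeds came from the labels, and each animal gave 1 library. Members and gene lists were chosen with earlier results of these data known. CPM used each library's total over all windows. Breeds were compared with edgeR 4.0.16 (R 4.3.3, TMM, likelihood-ratio test, CPM of at least 1 in 4 libraries, FDR under 0.1, FC of at least 2), and window positions with edgeR's quasi-likelihood test, blocked by animal, at a mean of at least 1 CPM. Class means used exact permutation tests over animals (Python 3.11.15). DESeq2 1.42.0, other scalings, filters and left-out libraries were alternatives. On simulated counts with a 2-fold change 24 of 50 genes were called in the window test of 4614 genes and 28 of 50 windows in the breed test of 115360, and all 50 at 3-fold in both. Since a call needed a fitted FC of at least 2, the cutoff itself limits the share called at 2-fold. The simulation used 1 dispersion for all rows, and 19 of 197 calls in the breed test and 0 of 174 in the window test were false. Genes named first were the 10 with the largest fold change in each direction (no LOC symbols). They were taken from called genes with the same direction in 8 of 8 animals. Also named were the 10 highest last windows, last windows called between breeds, and listed genes that were called or had the 2 highest or 2 lowest levels. Some of the genes so chosen are not reported here. No genome of this build was used, so no sequence is shown.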

Additional observations from a re-analysis of the deposited data

Results flagged for a closer look

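In 80 groups of 4 libraries, 1 library lay far from the other 3 in 4 cases, and chance gives about 1 in 20 groups. The last window of C9H6orf174 held 10.9 CPM in Holstein 3 and 8.60, 8.53 and 8.67 CPM in the other Holstein libraries. STX11 held 7.28 CPM in Angus 4 and 5.34, 5.11 and 5.47 CPM in the other Angus libraries. In Angus 1, HEY2 held 0.175 CPM, against 0.0695, 0.0672 and 0.0535 CPM, and OTUD4 0.140 CPM, against 0.104, 0.101 and 0.107 CPM, both a matter of a few reads.

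Last windows of the X chromosome were not among the members compared above. Windows of this chromosome did count in the library totals and among all windows of the genome offered to the breed test. Its 522 last windows averaged 0.656 ± 0.126 CPM (SD, n = 8), above the level of 3 reads in every library. They were below the preceding windows (0.707 CPM) and above the downstream windows (0.444 CPM) in 8 of 8 animals, as on the autosomes. They were also below the first windows of the same genes (0.923 CPM) in 8 of 8 animals, with a difference of -0.267 ± 0.0787 CPM, whereas on chromosomes 1 to 29 the last window was above the first in 8 of 8 animals. The difference between X and autosomes was not tested.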

How the results depend on the processing

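The comparisons of all last windows with the preceding, downstream and first windows, of the step at the gene end with the step before it, of windows with and without a coding exon, and of the breeds kept their direction and their side of the threshold under TMM, log2, autosomal library sizes, genes of 10 or more windows, consecutive windows, without the top 0.1% of windows and without any library, with these exceptions, and the other classes of gene or window were not recomputed. Last minus preceding window was -0.0219 CPM as a difference of medians (p = 0.125, exact permutation test), and without 1 library each -0.105 to -0.0994 CPM. For comparisons within animals, TMM and autosomal library sizes multiply each library by a constant, so they could not change a sign. Leaving out 1 library could not either, since all 8 animals agreed. These settings were therefore no test of those directions. The breed difference of last windows was -0.0139 CPM under TMM and -0.0134 to 0.191 CPM without 1 library each. Last windows called between breeds numbered 0 with the quasi-likelihood test, CPM of at least 1 in all 8 libraries or DESeq2, 3 with total counts, 2 on chromosomes 1 to 29 only, 9 with no CPM filter and 0 to 3 without 1 library each. Genes called higher and lower than the preceding window numbered 2620 and 3134 with no filter, 407 and 567 at a mean CPM of at least 2, and 551 and 673 in genes of 10 or more windows, as more or fewer genes were tested, and 910 to 972 and 1128 to 1181 without 1 library each. Genes whose ratio differed between breeds numbered 1 with no filter and 0 to 1 without 1 library each. Of named genes, PC turned sign (log2 0.11 under TMM and -0.0361 to 0.0022 without 1 library each), with no call in any of these. Animal numbers did not pair the breeds: same-number deviations correlated at -0.216 to 0.109. With a replicate block 0 last windows were called between breeds, the LOC783096 log2 fold change was -0.93, and the breed difference of last windows stayed at 0.0924 CPM.
Depth limits what windows near 3 reads can show, and most last windows were too low for the tests of single genes. Replicates are animals, so p-values cover these 8 cultures, each from 1 passage.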
